A study of Mus musculus with 18 samples.

Results

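The 10 genes described here, which mark the endothelium of liver sinusoids or endothelium in general, were followed through cultures of mouse hepatic stellate cells (HSC), the pericytes that store retinoids beside the sinusoids. The members, chosen by symbol, are Stab1, Stab2, Lyve1, Clec4g, Oit3, Kdr, Tek, Pecam1, Cdh5 and Dnase1l3. All 10 were present among the 35667 genes of the count table. RNA was measured in 18 bulk libraries that fall into 6 groups of 3. The first HSC group came from healthy wild-type mice and was taken at day 0, directly after isolation. The other HSC groups were taken at day 7, from plastic, from Matrigel without other cells, and from Matrigel shared with intrahepatic cholangiocyte organoids (ICO). The ICO, bile duct cells carrying a dTomato tag, were taken at day 7 from Matrigel without HSC and from the shared culture. The labels state the same medium for every group, equal parts of DMEM with serum and AdvDMEM/F12, to which the growth factors EGF, HGF and FGF10 were added together with RSPO3, gastrin, nicotinamide, N-acetylcysteine and the supplements N2 and B27. Matrigel cultures were sorted by cell type, and the labels do not describe the gates. Nothing in the labels ties libraries to separate animals, so p-values measure the spread between libraries, which may be technical.

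The sinusoid is lined by a fenestrated endothelium without a continuous basement membrane. Its cells take up waste macromolecules from blood through scavenger receptors and lectins, and they depend on vascular endothelial growth factor (VEGF) and angiopoietin signals. When taken from the liver, sinusoidal endothelial cells are known for losing fenestrae and scavenger receptors in culture. HSC lie directly beneath them, and preparations of one cell type can hold the other.

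All 10 genes were present in every day 0 library and all 10 were called lower in each of the 3 HSC cultures at day 7. Of all genes tested, 30.5% were lower on plastic, 21.5% alone in Matrigel and 24.8% in co-culture. Their summed level was 1697 to 1706 CPM (counts scaled to a common library size) in the day 0 libraries and 5.07 to 53.2 CPM in the 9 cultured HSC libraries. Stab1 stood apart from the rest, since HSC alone in Matrigel held 36.3% of its day 0 mean. Oit3 was the only member called higher in HSC from co-culture than in HSC alone in Matrigel. In bulk RNA, fewer cells of a type and less RNA per cell cannot be told apart.

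Promoter windows are shown for 3 receptors that the results turn on: Stab1, which kept a level in Matrigel, Stab2, which fell to 0 counts in co-culture, and Clec4g, the highest member per length at day 0. RefSeq windows of 250 bases before to 50 bases after the start, in build GRCm38.p6, matched 5 of the 10 members. The 3 printed lie at chr14:31168592-31168891, chr10:87007893-87008192 and chr8:3720602-3720901, each on the minus strand, and are written 5′ to 3′ along the gene. Capitals mark matches to core motifs of endothelial transcription factor families, searched on both strands.
Stab1: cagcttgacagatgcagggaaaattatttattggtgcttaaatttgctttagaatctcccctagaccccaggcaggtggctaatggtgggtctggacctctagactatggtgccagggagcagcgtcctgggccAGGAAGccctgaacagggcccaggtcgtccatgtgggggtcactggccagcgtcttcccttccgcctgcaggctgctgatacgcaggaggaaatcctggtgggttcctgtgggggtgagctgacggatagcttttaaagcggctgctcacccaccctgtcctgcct
Stab2: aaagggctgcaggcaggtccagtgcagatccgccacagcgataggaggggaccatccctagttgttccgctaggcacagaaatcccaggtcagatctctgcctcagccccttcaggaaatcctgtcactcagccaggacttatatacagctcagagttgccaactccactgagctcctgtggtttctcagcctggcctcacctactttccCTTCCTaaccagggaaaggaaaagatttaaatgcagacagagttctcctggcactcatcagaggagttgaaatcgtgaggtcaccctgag
Clec4g: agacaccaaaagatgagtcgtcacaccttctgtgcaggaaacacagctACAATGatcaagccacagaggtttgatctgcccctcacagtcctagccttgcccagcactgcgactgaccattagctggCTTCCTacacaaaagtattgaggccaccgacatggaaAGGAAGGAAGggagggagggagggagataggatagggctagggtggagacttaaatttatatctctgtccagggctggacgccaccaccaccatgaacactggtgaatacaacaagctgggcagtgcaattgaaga
The ETS core, AGGAAG or CTTCCT, stands 116 bases before the start of Stab1 and 40 before that of Stab2. In Clec4g it stands 123, 86 and 82 bases before the start, the last pair overlapping. This core was found in 35.4% of all 32851 windows of this length, so its presence is common. The SOX core, ACAATG or CATTGT, was found 202 bases before the start of Clec4g and in 12.6% of all windows. The GATA core, AGATAA or TTATCT, was found only in the Tek window among the 5, at base 37 from the start, and in 11.2% of all windows. The Kdr window held none of these letters. Matches describe the letters only and say nothing about binding.

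Library totals ran from 6907479 counts in HSC co-culture replicate 1 to 22158674 in plastic replicate 2. Stellate transcripts marked every HSC group, with summed levels over 12 genes of 80145 to 93938.5 CPM at day 0, 5769.6 to 47699.9 CPM in culture and 212 to 358 CPM in the ICO. The day 0 libraries also held transcripts of other liver cells, with 17847 to 18811 CPM over 12 hepatocyte genes and 939 to 998 CPM over 18 macrophage genes. Cholangiocyte transcripts summed over 12 genes reached 7739, 3262 and 1483 CPM in the 3 libraries of HSC alone in Matrigel, although the labels place no organoids there. They were 7158 to 11623 CPM in HSC from co-culture and 22089.9 to 28983 CPM in the ICO.

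At day 0 the levels per transcript length spanned a wide range. Levels are given here in CPM per kilobase of the longest coding transcript in GENCODE M21, as mean ± SD over 3 libraries. Clec4g, a C-type lectin of sinusoidal endothelium, was highest at 255 ± 12.3. Dnase1l3, a secreted DNase that degrades DNA in circulating chromatin, followed at 129 ± 2.50. Oit3, a zona pellucida domain protein found in liver endothelium, stood at 42.3 ± 1.47, and Kdr, the main signalling receptor for VEGF, at 34.8 ± 0.130. These first 4 were each separated from the next by more than the spread between libraries. Stab2, a scavenger receptor that clears hyaluronan, stood at 18.5 ± 0.654. Tek, the angiopoietin receptor also called Tie2, and Pecam1, a junctional adhesion molecule shared by endothelium, platelets and leukocytes, were at 15.8 ± 0.657 and 15.8 ± 1.361 and did not differ beyond their spread. Stab1, a scavenger receptor shared with macrophages, stood at 11.3 ± 0.981. Lyve1, a hyaluronan receptor of sinusoidal and lymphatic endothelium, and Cdh5, the adherens junction cadherin of endothelium, were lowest at 5.17 ± 0.935 and 4.56 ± 0.471, again without a gap beyond their spread. The order rests on the transcript chosen for each gene.

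**Figure D1:**
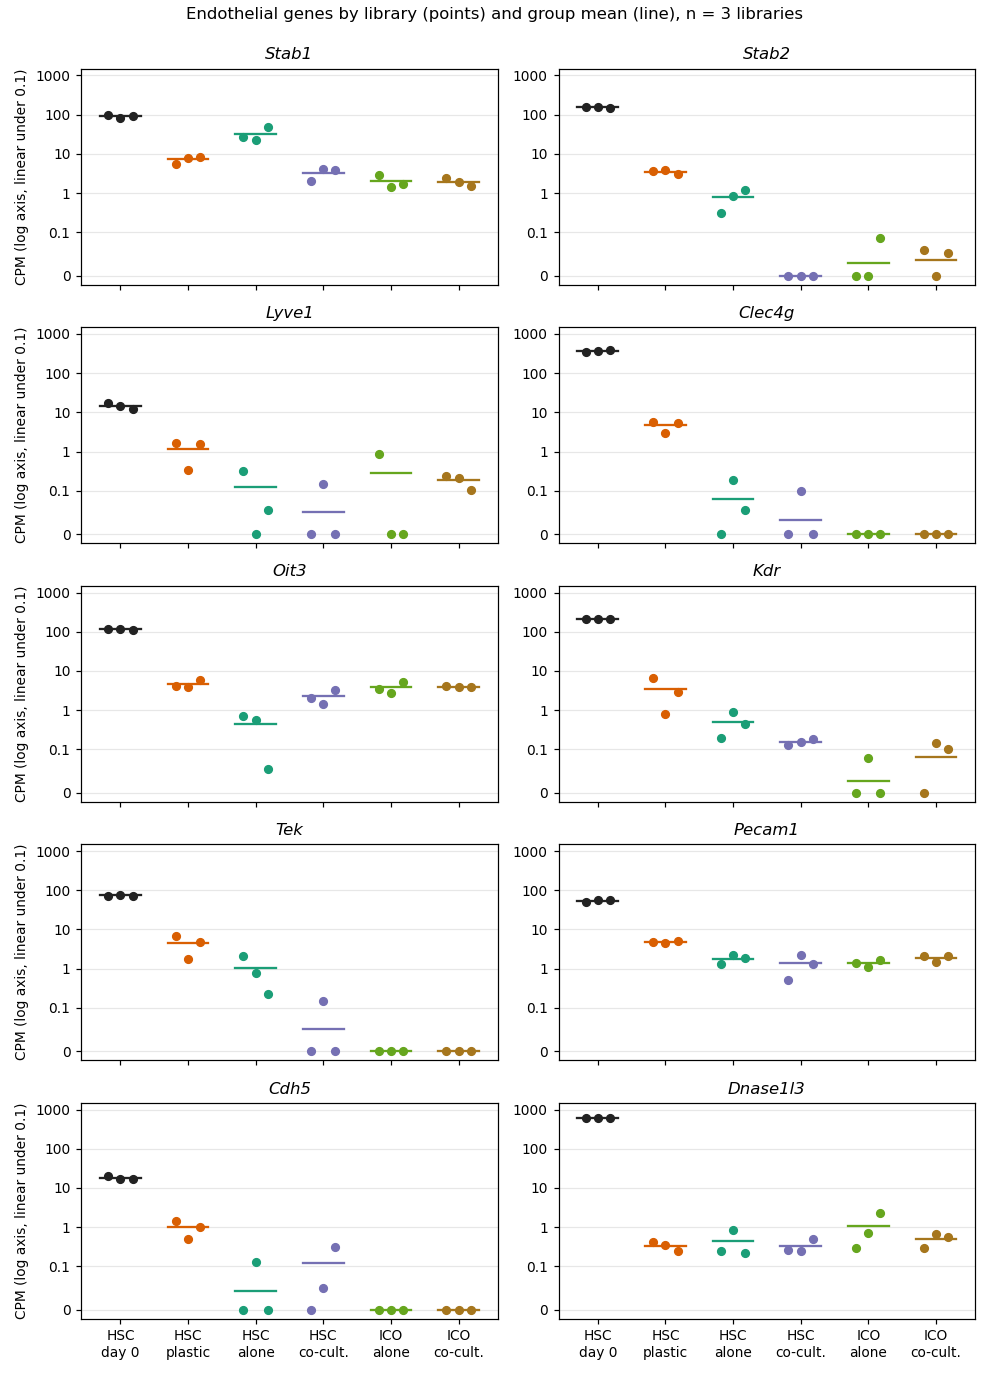
Level of each member in every library, in CPM on an axis that is logarithmic above 0.1 and linear below it. Points are libraries, short lines are means of 3 libraries, and "HSC alone" and "ICO alone" are the Matrigel cultures of one cell type. All day 0 points lie above all culture points of the same gene, and Stab1 in HSC alone in Matrigel lies nearest to day 0. How many of all genes were separated in this way was not counted.

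Among the scavenger and lectin receptors, Stab1 was 97.4, 81.8 and 91.0 CPM in the day 0 libraries. On plastic it was 5.54, 8.03 and 8.43 CPM, alone in Matrigel 26.4, 22.7 and 49.1 CPM, and in co-culture 2.08, 4.08 and 3.84 CPM. The 4 HSC groups did not overlap, in the order day 0, Matrigel alone, plastic and co-culture. Against day 0 the fitted log2 change was -3.64 ± 0.30 (SE) on plastic (adjusted p = 5.38e-07), -1.46 ± 0.28 alone in Matrigel (adjusted p = 0.00109) and -4.68 ± 0.33 in co-culture (adjusted p = 1.22e-07). The mean in Matrigel was raised by replicate 3, without which the change from day 0 was -1.88. The ICO held 1.43 to 2.85 CPM of Stab1 in the 6 libraries, a range that the lowest co-culture HSC library fell within.

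Stab2, the paralog of Stab1, did not share this pattern. It was 157, 155 and 146 CPM at day 0, 3.69, 3.97 and 2.99 CPM on plastic, and 0.317, 0.826 and 1.21 CPM alone in Matrigel. No count was found in any of the 3 co-culture libraries. Each group lay below the previous one with no overlap. The log2 change from day 0 was -5.44 ± 0.26 on plastic (adjusted p = 1.48e-08) and -7.56 ± 0.30 alone in Matrigel (adjusted p = 8.29e-09). In co-culture the level was at least 2206-fold lower than at day 0, taking 3 counts over the group as the floor (adjusted p = 2.05e-09).

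Lyve1 started low, at 17.8, 14.6 and 12.4 CPM, and was 1.64, 0.343 and 1.59 CPM on plastic. Alone in Matrigel it was 0.317, 0 and 0.0548 CPM, and in co-culture 0, 0.151 and 0 CPM, which is 3 counts in all. The cultures in Matrigel are thus near the limit of detection. The log2 change was -3.69 ± 0.66 on plastic (adjusted p = 0.000298) and -6.85 ± 0.84 alone in Matrigel (adjusted p = 2.87e-05). In co-culture the pooled level was 215-fold lower, with a 95% counting interval of 73.1 to 1043 (adjusted p = 1.30e-05). Such intervals and floors reflect counting error alone, because PCR copies were not told apart.

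Clec4g fell from 348, 371 and 383 CPM at day 0 to 5.54, 2.99 and 5.37 CPM on plastic. Alone in Matrigel it was 0, 0.191 and 0.0548 CPM, and in co-culture 0, 0.101 and 0 CPM. Only 4 and 2 counts remained in those Matrigel groups. The log2 change was -6.35 ± 0.28 on plastic (adjusted p = 2.33e-09) and -12.02 ± 0.42 alone in Matrigel (adjusted p = 4.60e-10). The co-culture level was 7991-fold lower, with a counting interval of 2212 to 65987 (adjusted p = 3.70e-10).

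Oit3 was 116, 118 and 111 CPM at day 0 and 4.17, 3.92 and 5.80 CPM on plastic. Alone in Matrigel it was 0.698, 0.572 and 0.0548 CPM, and in co-culture 2.08, 1.46 and 3.33 CPM. The co-culture libraries all lay above those of HSC alone in Matrigel, with no overlap, and below those on plastic. The log2 change from day 0 was -4.66 ± 0.35 on plastic (adjusted p = 2.38e-07), -8.05 ± 0.45 alone in Matrigel (adjusted p = 3.80e-08) and -5.64 ± 0.38 in co-culture (adjusted p = 9.77e-08). Oit3 was also present in the ICO, at 3.44, 2.78 and 5.34 CPM alone and 4.17, 3.91 and 3.90 CPM in co-culture, a level that 2 of the 3 co-culture HSC libraries did not reach.

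The receptor kinases that carry VEGF and angiopoietin signals were both lost in culture. Kdr was 206, 207 and 205 CPM at day 0, with the smallest SD of the members. It was 6.43, 0.783 and 2.93 CPM on plastic, 0.190, 0.890 and 0.439 CPM alone in Matrigel and 0.130, 0.151 and 0.189 CPM in co-culture. The plastic libraries varied most, and the lowest of them overlapped with HSC alone in Matrigel. The log2 change from day 0 was -6.00 ± 0.56 on plastic (adjusted p = 5.78e-06), -8.65 ± 0.67 alone in Matrigel (adjusted p = 3.54e-06) and -10.24 ± 0.78 in co-culture (adjusted p = 1.53e-06). Tek was 73.2, 76.9 and 70.9 CPM at day 0, and 6.70, 1.71 and 4.76 CPM on plastic. It was 2.10, 0.763 and 0.219 CPM alone in Matrigel, and 0, 0.151 and 0 CPM in co-culture, or 3 counts. As for Kdr, plastic and Matrigel overlapped for Tek. The log2 change of Tek was -4.11 ± 0.57 on plastic (adjusted p = 9.75e-05) and -6.18 ± 0.66 alone in Matrigel (adjusted p = 3.05e-05). In co-culture Tek was 1067-fold lower, with a counting interval of 365 to 5177 (adjusted p = 5.11e-06).

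The junctional genes parted in the cultures. Pecam1 was 49.0, 57.8 and 56.2 CPM at day 0, 4.85, 4.41 and 5.13 CPM on plastic, 1.33, 2.22 and 1.86 CPM alone in Matrigel and 0.520, 2.27 and 1.32 CPM in co-culture. The ICO held 1.11 to 2.08 CPM of Pecam1, which overlaps with both HSC groups from Matrigel. The log2 change from day 0 was -3.53 ± 0.30 (adjusted p = 4.51e-07), -4.90 ± 0.33 (adjusted p = 1.05e-07) and -5.17 ± 0.34 (adjusted p = 4.13e-08) on plastic, alone in Matrigel and in co-culture. Cdh5 was 20.4, 17.3 and 17.0 CPM at day 0 and 1.44, 0.490 and 1.04 CPM on plastic. It was 0, 0.127 and 0 CPM alone in Matrigel, where 2 counts remained, and 0, 0.0504 and 0.315 CPM in co-culture, with 6 counts. Cdh5 was thus near the limit of detection in Matrigel cultures in which Pecam1 was still measured. The log2 change of Cdh5 was -4.24 ± 0.56 on plastic (adjusted p = 2.28e-05) and -6.96 ± 0.71 in co-culture (adjusted p = 2.64e-06). Alone in Matrigel it was 450.4-fold lower, with a counting interval of 124 to 3726 (adjusted p = 2.17e-06).

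Dnase1l3 showed the largest loss on plastic. It was 622, 598 and 612 CPM at day 0. It was 0.410, 0.343 and 0.244 CPM on plastic, 0.254, 0.826 and 0.219 CPM alone in Matrigel and 0.260, 0.252 and 0.503 CPM in co-culture. All 9 cultured HSC libraries were under 1 CPM, and the 3 culture groups overlapped. The log2 change was -10.84 ± 0.31 (adjusted p = 5.32e-11), -10.46 ± 0.31 (adjusted p = 7.79e-11) and -10.74 ± 0.32 (adjusted p = 7.19e-11) in the same order. The ICO held 0.293 to 2.24 CPM.

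Read against all genes, the loss was shared by every member in each culture. On plastic all 10 were called lower, where 30.5% of the 17020 genes tested were, and the median log2 change was -4.45 for the members and -0.10 for all genes. Alone in Matrigel all 10 were lower, where 21.5% of genes were, with medians of -7.80 and 0.09. In co-culture all 10 were lower, where 24.8% of genes were, with medians of -8.77 and 0.09, and the members' median was the same with Stab2 set to its bound. The 3 comparisons share the day 0 libraries, so they are not independent of one another. Loss in culture was not particular to endothelial genes. All 12 hepatocyte genes were also lower, with medians of -11.92 on plastic, -8.09 alone in Matrigel and -9.45 in co-culture. Of 12 stellate genes, 10, 7 and 11 were lower and 0, 1 and 0 higher in the same order. All 12 cholangiocyte genes were instead higher in both Matrigel cultures, where 19.3% of all genes were alone and 28.9% in co-culture. On plastic 1 of them was higher and 3 lower, where 27.5% and 30.5% of all genes were. The day 0 libraries did not overlap with the cultured ones for any member, but how many of all genes were separated in this way was not counted.

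The share of the day 0 mean that was left differed between members and cultures. On plastic it ran from 0.0544% for Dnase1l3 to 8.83% for Pecam1, with a median of 4.72%, and Dnase1l3 alone was under 1%. Alone in Matrigel it ran from 0.0223% for Clec4g to 36.3% for Stab1, with a median of 0.449%. There 7 members were under 1%, and the other 3 were Stab1, Pecam1 with 3.33% and Tek with 1.39%. In co-culture it ran from 0 for Stab2 to 3.70% for Stab1, with a median of 0.207%. Again 7 members were under 1%, and the others were Stab1, Pecam1 with 2.52% and Oit3 with 1.99%.

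**Figure D2:**
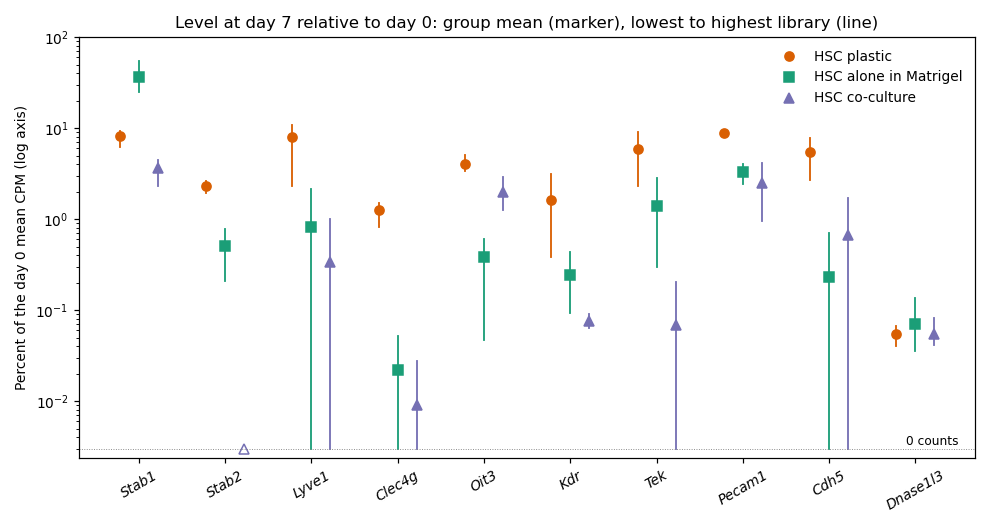
Percent of the day 0 mean CPM found in each day 7 HSC culture, on a log axis. Markers are means of 3 libraries and lines run from the lowest to the highest library, down to the dotted line where a library had 0 counts. The open triangle is Stab2 in co-culture, with 0 counts in all 3 libraries, and the highest marker is Stab1 alone in Matrigel, at 36.3%.

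The cultures were then set against each other. In Matrigel alone against plastic, 8 of the 10 members were lower and Stab1 was higher, where 25.2% of all genes were lower and 29.9% higher. Stab1 rose by a log2 value of 2.18 ± 0.29 (adjusted p = 5.12e-05), and by 1.73 without Matrigel replicate 3. Clec4g was lower by the largest amount, -5.67 ± 0.49 (adjusted p = 1.40e-06), followed by Cdh5 with a 23.2-fold lower pooled level and a counting interval of 6.08 to 197 (adjusted p = 0.00115). The other called members were Oit3 at -3.38 ± 0.45 (adjusted p = 5.70e-05), Lyve1 at -3.16 ± 0.86 (adjusted p = 0.00752), Kdr at -2.65 ± 0.71 (adjusted p = 0.00923), Stab2 at -2.12 ± 0.30 (adjusted p = 0.000139), Tek at -2.07 ± 0.64 (adjusted p = 0.0181) and Pecam1 at -1.37 ± 0.31 (adjusted p = 0.00249). The call for Tek was lost without plastic replicate 1 (adjusted p = 0.0640) or Matrigel replicate 2 (adjusted p = 0.0644). The call for Kdr was lost when HSC alone in Matrigel replicate 1 and co-culture replicate 3, the library with the highest cholangiocyte sum in each of these groups, were both left out (adjusted p = 0.0579). Dnase1l3 did not pass the test, at 0.38 ± 0.46 (adjusted p = 0.507).

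Between HSC from co-culture and HSC alone in Matrigel, 3 members were lower and 1 was higher, where 13.8% of all genes were lower and 17.3% higher. Stab1 was lower by -3.23 ± 0.32 on the log2 scale (adjusted p = 8.92e-06). Stab2 was at least 11.6-fold lower, with 0 counts against 40 (adjusted p = 0.000333). Tek was 14.3-fold lower, with 3 counts against 49 and a counting interval of 4.60 to 71.6 (adjusted p = 0.0392). That call was lost without any one of 5 of the 6 libraries, all but Matrigel replicate 3 (adjusted p 0.0655 to 0.135). Oit3 was higher by 2.41 ± 0.49 (adjusted p = 0.00262). The remaining 6 did not pass, among them Pecam1 at -0.27 ± 0.34 (adjusted p = 0.590) and Dnase1l3 at -0.28 ± 0.48 (adjusted p = 0.691). Kdr (adjusted p = 0.352), Lyve1 (adjusted p = 0.683), Cdh5 (adjusted p = 0.328) and Clec4g (adjusted p = 0.688) had at most 25 counts in either group, so differences between them were hardly measurable at this depth.

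Against plastic, HSC from co-culture were lower for 9 of the 10 members, where 19.6% of all genes were lower. Stab2 was at least 51.8-fold lower (adjusted p = 4.61e-06), Clec4g 97.1-fold with a counting interval of 26.6 to 807 (adjusted p = 3.48e-06), Tek 59.4-fold with an interval of 20.1 to 290.4 (adjusted p = 0.00104) and Lyve1 16.0-fold with an interval of 5.22 to 80.1 (adjusted p = 0.00560). On the log2 scale Kdr was at -4.24 ± 0.91 (adjusted p = 0.00371), Cdh5 at -2.72 ± 0.75 (adjusted p = 0.0104), Pecam1 at -1.64 ± 0.33 (adjusted p = 0.00131), Stab1 at -1.05 ± 0.31 (adjusted p = 0.0171) and Oit3 at -0.97 ± 0.37 (adjusted p = 0.0476). The smallest differences were the least stable. The call for Stab1 was lost without plastic replicate 3 (adjusted p = 0.0554) or co-culture replicate 1 (adjusted p = 0.0566). The call for Oit3 was lost without any one of 5 of the 6 libraries, all but co-culture replicate 3 (adjusted p 0.0532 to 0.158), and under both other low-count filters. Dnase1l3 did not pass, at 0.10 ± 0.50 (adjusted p = 0.899). These 3 comparisons share libraries among themselves.

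**Figure D3:**
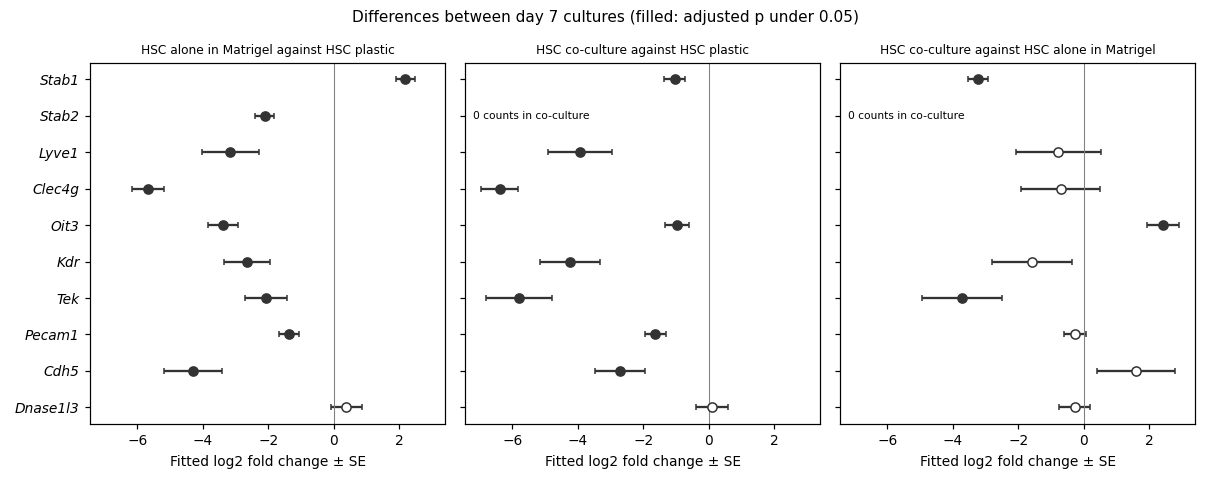
Fitted log2 fold change ± SE of each member between the day 7 HSC cultures, from 3 libraries a group, with filled points for an adjusted p under 0.05. Stab1 is the only filled point right of 0 in the left panel, at 2.18, and Oit3 the only one in the right panel, at 2.41. Stab2 has no point where co-culture held 0 counts, and points for Lyve1, Clec4g, Tek and Cdh5 rest on groups with as few as 2 or 3 counts.

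Levels of other cell types are set beside both exceptions, Stab1 and Oit3. The summed macrophage transcripts were 186, 133 and 574 CPM on plastic, 2599, 2653 and 3471 CPM alone in Matrigel and 283, 309 and 419 CPM in co-culture. The same sum was 549 to 579 CPM in ICO alone and 519 to 670 CPM in ICO from co-culture. Clec4f, Marco and Timd4 had 0 counts in both ICO groups, so the sum need not stand for macrophages alone. Among the cultured libraries, Stab1, the macrophage sum and the stellate sum were all highest in replicate 3 of HSC alone in Matrigel. Mean stellate sums over 12 genes were 87365, 36405, 9316 and 7087 CPM at day 0, alone in Matrigel, on plastic and in co-culture. Stab1 had the same order. The macrophage sum, unlike Stab1, was lower at day 0, 939 to 998 CPM, than alone in Matrigel. Most of the mean sum of 2908 CPM alone in Matrigel was Lyz2, given below. Gene by gene the list was split between Matrigel alone and day 0. There 6 of the 18 genes were called higher and 5 lower, with a median log2 change of -0.51, where 19.3% and 21.5% of all genes were. Of the 18 macrophage genes, 13 were called higher and 0 lower in Matrigel alone than on plastic by edgeR's test, and 12 were lower and 0 higher in co-culture than in Matrigel alone. Of all genes, 29.9% were higher and 25.2% lower in Matrigel alone than on plastic. In co-culture against Matrigel alone 13.8% were lower and 17.3% higher. The lysosomal gene Lyz2, for instance, was 154 ± 115 CPM on plastic, 2176 ± 464 CPM in Matrigel and 132 ± 28.6 CPM in co-culture (SD, n = 3), and Adgre1, which encodes F4/80, was 9.98 ± 7.33, 58.8 ± 10.4 and 3.10 ± 0.948 CPM. The Kupffer cell gene Clec4f was at 231 ± 9.11 CPM at day 0, at 0 counts on plastic and in co-culture and at 0.200 ± 0.191 CPM alone in Matrigel. No macrophage gene on the list was at 0 in HSC alone in Matrigel. Mrc1, a mannose receptor of sinusoidal endothelium and macrophages, moved in the same order as Stab1, at 154 ± 5.97, 4.58 ± 1.69, 48.5 ± 12.4 and 1.29 ± 0.432 CPM at day 0, on plastic, alone in Matrigel and in co-culture. Lyz2, Adgre1, Clec4f and Mrc1 were chosen after their values were seen. The part of macrophage or stellate transcripts in the Stab1 result was not tested.

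For Oit3 the values beside it are those of the organoids. Among the 6 Matrigel HSC libraries, Oit3 was lowest, 0.0548 CPM, in the library with the lowest cholangiocyte sum, 1483 CPM, and highest, 3.33 CPM, in the library with the highest sum, 11623 CPM. The libraries between did not all keep this order. HSC alone in Matrigel replicate 1 had a sum of 7739 CPM and 0.698 CPM of Oit3. Co-culture replicate 2 had a lower sum, 7158 CPM, and more Oit3, 1.46 CPM. Plastic libraries, with cholangiocyte sums of 162 to 354 CPM, held more Oit3 than any Matrigel HSC library, from 3.92 CPM upward. Without the library of highest cholangiocyte sum in each group, chosen after seeing the data, the difference between co-culture and Matrigel alone was 2.48 (adjusted p = 0.00497). The cholangiocyte sums left were 9719 and 7158 CPM in co-culture and 3262 and 1483 CPM in Matrigel alone, so the groups still differed in them. The part of organoid transcripts in the Oit3 result was not tested.

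**Figure D4:**
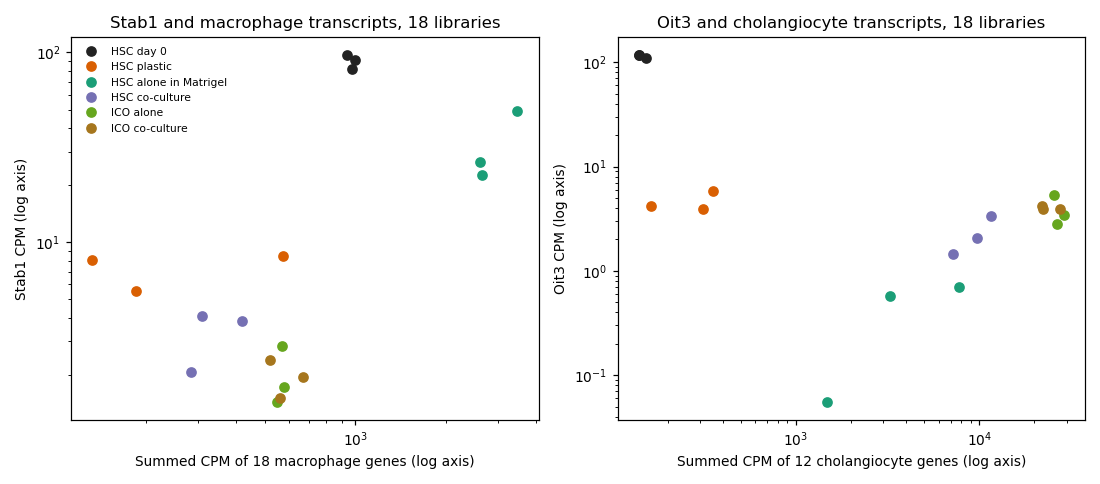
Left, Stab1 against the summed level of 18 macrophage genes, and right, Oit3 against the summed level of 12 cholangiocyte genes, both in CPM on log axes, with 1 point a library in the 6 groups of 3. HSC alone in Matrigel hold the highest macrophage sums, 2599 to 3471 CPM, with Stab1 at 22.7 to 49.1 CPM, and their Oit3 is under that of all 3 co-culture HSC libraries.

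Levels of these genes in the organoid libraries are given next. These libraries also held 212 to 358 CPM over 12 stellate genes, and their purity as epithelium was not tested. Tek, Cdh5 and Clec4g were at 0 counts in all 6 ICO libraries, and Kdr and Stab2 had at most 4 counts in either ICO group. Lyve1 was 0.878, 0 and 0 CPM in ICO alone and 0.235, 0.217 and 0.104 CPM in ICO from co-culture. Only Stab1, Pecam1 and Oit3 had enough counts to be tested between the ICO groups, and edgeR's test called 0 of the 3, where 16.6% of 13726 genes were called in either direction. Stab1 differed by -0.07 ± 0.44 (adjusted p = 0.941), Pecam1 by 0.42 ± 0.45 (adjusted p = 0.591) and Oit3 by 0.02 ± 0.32 (adjusted p = 0.977). None of the 3 had an unadjusted p under 0.05, and DESeq2 also called 0.

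Between HSC alone and ICO alone in Matrigel, 4 members had enough counts for the test. Stab1 was higher in HSC, by 4.18 ± 0.39 (adjusted p = 2.13e-06), and Oit3 lower, by -2.96 ± 0.62 (adjusted p = 0.00144), where 30.9% of 16233 genes were higher and 25.8% lower. Pecam1, at 0.56 ± 0.49 (adjusted p = 0.345), and Dnase1l3, at -1.13 ± 0.78 (adjusted p = 0.233), did not pass. Outside the test, HSC held 49 counts of Tek where the ICO held 0, at least 12.4-fold more, and 40 of Stab2 where the ICO held 1, a 30.5-fold difference with a counting interval of 5.16 to 1233. The effect of co-culture itself differed between the cell types for Stab1, with a difference of -3.26 ± 0.53 (adjusted p = 0.00136), where 8.08% of genes had a lower value in HSC. For Oit3 the difference was 2.27 ± 0.81 (adjusted p = 0.0734), which passed the threshold without HSC alone in Matrigel replicate 1 (2.80, adjusted p = 0.0360) and in DESeq2 (adjusted p = 0.0197). Pecam1 (adjusted p = 0.441) and Dnase1l3 (adjusted p = 0.723) did not differ by this test.

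Further genes listed for endothelium were also followed. The cells from which their transcripts came were not tested. Among 17 other genes of sinusoidal endothelium, 16 could be tested. On plastic 14 were lower and 1 higher than at day 0, alone in Matrigel 11 and 1, and in co-culture 15 and 0. Of all genes 30.5%, 21.5% and 24.8% were lower and 27.5%, 19.3% and 28.9% higher in these comparisons. The median changes of this list, -2.93, -2.14 and -3.44, were smaller in size than those of the 10 members. Ehd3, a membrane trafficking protein, was 3818 ± 72.1 CPM at day 0, 212 ± 18.6 on plastic, 752 ± 143 alone in Matrigel and 33.5 ± 8.67 in co-culture. Rspo3, a Wnt signal enhancer that stellate cells also make, was 559 ± 22.003, 222 ± 61.4, 699.8 ± 171 and 99.8 ± 34.6 CPM, and alone in Matrigel it did not pass the test against day 0, at 0.33 ± 0.26 (adjusted p = 0.336). Nr2f2, a venous transcription factor also present in stellate cells, was 351 ± 18.4, 149 ± 22.9, 201 ± 47.8 and 80.9 ± 15.1 CPM. These 3 genes had the highest CPM on the list at day 0, and the lowest of their group means in culture was 33.5 CPM. Alone in Matrigel Ehd3 was at 752 CPM, where Cdh5 held 2 counts, Clec4g 4 and Kdr 25. Calcrl and Plvap, given below, were at 550 and 2191 CPM there.

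In Matrigel alone against plastic this list had 10 higher and 2 lower of 16, with a median of 1.08. Of all genes 29.9% were higher and 25.2% lower in that comparison, and the members had 1 higher and 8 lower of 10, with a median of -2.38. In co-culture against Matrigel alone 9 were lower and 1 higher, where 13.8% and 17.3% of all genes were. Among 29 other general endothelial genes, 28 were tested. Lower than day 0 were 25 on plastic, 25 alone in Matrigel and 26 in co-culture, and 1 was higher in each. Of all genes 30.5%, 21.5% and 24.8% were lower and 27.5%, 19.3% and 28.9% higher in these comparisons. Eng, a TGF-beta co-receptor that stellate cells also carry, was 1930 ± 17.5, 929 ± 114, 1305 ± 309 and 476 ± 112 CPM in the 4 HSC groups. Calcrl, the adrenomedullin receptor, was 1365 ± 44.0, 97.6 ± 11.4, 549.8 ± 117 and 79.3 ± 23.0 CPM. Ptprb, the phosphatase that restrains Tek, was 230 ± 5.19, 3.57 ± 2.20, 0.269 ± 0.317 and 13.7 ± 8.06 CPM. Ptprb rose in co-culture over Matrigel alone by 5.62 ± 0.80 (adjusted p = 0.000503), whereas its substrate Tek was at 3 counts there. Between HSC alone and ICO alone in Matrigel, 13 of 16 tested sinusoidal and 14 of 20 tested general endothelial genes were higher in HSC, and 2 and 5 were lower. Of all genes 30.9% were higher and 25.8% lower there.

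Genes of other vessels were counted in the same way. Of 12 genes of large, continuous or activated vessels, 7 were lower and 1 higher on plastic than at day 0, where 30.5% and 27.5% of all genes were. The counts were 5 and 1 alone in Matrigel, where 21.5% and 19.3% were, and 5 and 3 in co-culture, where 24.8% and 28.9% were. Plvap, a fenestral diaphragm protein, was 4487 ± 256, 280.0 ± 154, 2191 ± 581 and 451 ± 106 CPM in the 4 HSC groups, and Gja4, an arterial connexin, 117 ± 15.0, 3.49 ± 1.08, 13.4 ± 3.33 and 6.67 ± 1.07 CPM. Ly6a, which the organoids held at 1816 ± 283 CPM alone, was 94.6 ± 8.67, 0.689 ± 0.281, 159 ± 139 and 419 ± 232 CPM. Of 5 lymphatic genes, 2 were higher and 2 lower on plastic, 1 and 1 alone in Matrigel, and 2 and 3 in co-culture, too few genes to be read against those shares. Prox1, the lymphatic fate factor that biliary cells also carry, was 13.4 ± 1.52, 1.03 ± 0.656, 7.96 ± 4.99 and 2.66 ± 0.819 CPM in the 4 HSC groups. In ICO alone Prox1 was 6.47 ± 1.96 CPM. Pdpn was 3.09 ± 0.754, 13.4 ± 3.38, 3.18 ± 2.18 and 37.5 ± 8.39 CPM in the 4 HSC groups. Ccl21a was 7.16 ± 2.01, 0.237 ± 0.220, 6.58 ± 1.61 and 2.98 ± 1.22 CPM there. The Ccl21a values are uncertain because its reads may be shared with near-identical Ccl21 copies.

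Ligands and co-receptors of Kdr and Tek changed in both directions. Of 9 genes, 4 were higher and 3 lower on plastic than at day 0, where 27.5% and 30.5% of all genes were. The counts were 1 and 3 alone in Matrigel, where 19.3% and 21.5% were, and 2 and 3 in co-culture, where 28.9% and 24.8% were, so the list was near the share of all genes. Vegfa, the Kdr ligand, rose from 2.25 ± 0.205 CPM at day 0 to 7.75 ± 1.28 on plastic, 8.05 ± 3.08 alone in Matrigel and 41.2 ± 13.3 in co-culture, a log2 change of 4.20 ± 0.33 in the last (adjusted p = 1.98e-07). In the ICO Vegfa was 17.2 ± 0.636 CPM alone and 38.7 ± 5.01 CPM in co-culture. Vegfc, which acts through Flt4 and Kdr, was 40.0 ± 2.25, 34.5 ± 5.12, 9.10 ± 1.38 and 31.0 ± 8.23 CPM in the 4 HSC groups, and its fall alone in Matrigel was -2.13 ± 0.20 (adjusted p = 2.22e-06). Angpt1, an activating Tek ligand named after its values were seen, fell with the receptors, from 20.3 ± 4.08 CPM at day 0 to 0.273 ± 0.328, 3.29 ± 1.02 and 1.14 ± 0.382 CPM on plastic, alone in Matrigel and in co-culture. Nrp1, a VEGF co-receptor called lower in all 3 cultures, was 284 ± 16.0, 54.3 ± 5.86, 100.2 ± 15.5 and 52.6 ± 9.02 CPM. Kdr was thus near 0 in the co-culture HSC in which Vegfa was highest among the HSC groups.

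The pattern over the 12 HSC libraries was compared between genes as Pearson's r on log2(CPM + 1). This is a description, since the libraries share their groups and any gene high at day 0 alone scores high. Stab1 was least like the mean of the other 9 members, with r of 0.742, followed by Oit3 with 0.958 and Dnase1l3 with 0.968, whereas Tek had 0.975 and the other 6 had 0.987 to 0.994. Among 11178 further genes, 422 reached an r of 0.95 with the mean of all 10. The 10 most alike were Robo4, Gpihbp1, Adgrf5, Lmf1, Fam167b, Cldn5, Tie1, Gcdh, Pcdh12 and Abcg1, with r from 0.995 for Robo4 to 0.988 for Abcg1. Robo4 was 31.6 CPM at day 0, 1.04 CPM on plastic and 0 counts alone in Matrigel. Cldn5, an endothelial claudin, was 43.3 CPM at day 0, 1.80 CPM on plastic and 0 counts in both Matrigel groups. Lmf1, by contrast, fell only from 45.7 CPM at day 0 to 23.6 to 26.6 CPM, so likeness by r does not mean a like size of loss.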

How the data were processed

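The authors deposited estimated counts per gene for all 18 libraries, made from Smart-seq2 cDNA with Nextera XT tagmentation, per the labels' protocols. Counts were not collapsed by molecular identifier, and nothing is known of the summing of transcripts to genes. Per the submitters' processing notes, GRCm39 was the build named and the tools included kallisto 0.46.1 as well as DESeq2 1.36.0, with no role given. Deposited counts were rounded. The robust quasi-likelihood F test of edgeR 4.0.16 (R 4.3.3) was run after TMM scaling and edgeR's own filter on low counts, and Benjamini-Hochberg adjustment covered all genes tested, with a threshold of 0.05. HSC comparisons used 1 fit of the 12 HSC libraries, ICO comparisons the 6 ICO libraries, and comparisons between cell types the 12 Matrigel libraries. The first comparison of each fit was run on simulated counts, and the others were not.

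CPM values rest on the deposited counts and on TMM factors fitted to the 18 libraries together. The SE is the absolute fitted log2 change divided by the square root of F, so it is no separate estimate of error. Where a group held 0 counts, the fold is a bound, taken against 3 counts in that group as a whole. Where it held 1 to 3, the fold is of pooled counts with an exact 95% binomial interval. Transcript lengths come from GENCODE M21 by Ensembl identifier, and promoter windows from RefSeq by symbol. Both are of build GRCm38, and no other coordinates were used.

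The 10 members and all gene lists were chosen with earlier results of these data known. All members were named, and from each other endothelial list the 3 genes with the highest mean CPM at day 0, from the ligand list the 3 with the highest in any group. Genes of like pattern were taken by r among genes with a mean of at least 10 CPM in some group. Alternatives were RLE scaling, DESeq2 1.42.0, no low-count filter, a stricter filter of 10 CPM in 3 libraries, a replicate block, fits of all 18 or only the compared libraries, and leaving out single libraries. Same-numbered libraries did not deviate together, with correlations of -0.356 to 0.09 within comparisons. No pair of libraries was a duplicate, the highest correlation being 0.9921. Leukocyte genes were counted but not compared.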

Additional observations from a re-analysis of the deposited data

Results flagged for a closer look

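The effect of co-culture on Stab1 differed between the cell types. The fitted log2 change from Matrigel alone to co-culture was 3.26 lower in HSC than in ICO (-3.26, adjusted p = 0.00136 by edgeR's quasi-likelihood test of the difference). In HSC, Stab1 fell in all 3 co-culture libraries, from 32.7 ± 14.3 to 3.33 ± 1.09 CPM (SD, n = 3), while the ICO libraries overlapped, at 2.00 ± 0.751 and 1.96 ± 0.451 CPM. The difference stayed between -3.59 and -2.87 under the 19 alternatives run, with a highest adjusted p of 0.00554. Macrophage transcripts moved in the same direction in HSC, from 2908 ± 488 to 337 ± 71.9 CPM over 18 genes. Stellate transcripts did too, from 36405 ± 11362 to 7087 ± 1797 CPM over 12 genes. The part of either in this difference was not tested.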

How the results depend on the processing

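All 407 values of members against day 0 under the alternatives kept their direction and stayed past the threshold, with a highest adjusted p of 0.00754. Over all fitted member values, 926 alternatives kept the call and direction, 23 lost the call, 3 gained one and 17 turned direction. With the replicate block the counts of called members were 10, 10 and 10 against day 0, 9 for Matrigel alone against plastic, 4 for co-culture against Matrigel alone, 8 instead of 9 for co-culture against plastic (Oit3 lost its call, adjusted p = 0.0771), 0 in the ICO, 2 between the cell types and 1 for the difference of effects. The labels do not say that replicate numbers pair libraries.

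Members called in co-culture against Matrigel alone went from 4 to 1 when only the 6 libraries compared were fitted, where only 3 members passed the filter, and Oit3 then missed the threshold (adjusted p = 0.0623). Tek and Oit3 lost calls between cultures without the low-count filter (adjusted p = 0.0940 for Tek in co-culture against Matrigel alone, 0.0613 for Oit3 in co-culture against plastic). Between HSC alone and ICO alone the count of 2 became 5 without the filter, 1 with the stricter filter and 4 with all 18 libraries, and 2 to 4 when single libraries were left out (4 without any one ICO library), since the number of members tested changed. For the difference of co-culture effects the count of 1 became 2 with DESeq2, 3 with all 18 libraries and 1 to 3 when single libraries were left out (3 without HSC alone in Matrigel replicate 1). The summed CPM of the members at day 0 was 1354 by library totals alone against 1703 with TMM, because the TMM factors of day 0 libraries were 0.787 to 0.802.

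The values that turned direction had not passed the test. For Dnase1l3 the leave-one-out values ran from -0.45 to 0.69 in Matrigel alone against plastic, from -0.71 to 0.55 in co-culture against Matrigel alone, from -0.37 to 0.34 in co-culture against plastic, and from -0.40 to 1.58 for the difference of effects. In co-culture against Matrigel alone they ran from -3.98 to 1.03 for Lyve1, -0.82 to 0.026 for Pecam1, -0.14 to 4.20 for Cdh5 and -3.44 to 0.53 for Clec4g. In the ICO they ran from -0.27 to 0.27 for Stab1 and -0.17 to 0.33 for Oit3. Without HSC alone in Matrigel replicate 1 and co-culture replicate 3, the highest cholangiocyte sum in each group and chosen after seeing the data, Lyve1 was at 1.62 and Cdh5 at -0.61 in co-culture against Matrigel alone, and Dnase1l3 at -0.34 in co-culture against plastic. The causes were not tested. Where a group held under 10 counts of a member, depth limits what can be compared.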
